A study of Mus musculus with 25 samples.

Results

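Mouse melanomas that had become resistant to a BRAF inhibitor (Prog, n = 5) were compared with residual tumors on a BRAF inhibitor (Res, n = 5) by RNA sequencing of tumor biopsies. The genes described are all those with a mean of at least 1 FPKM over these 10 libraries, which were 12190 of the 23940 genes in the deposited table. FPKM is the number of sequenced fragments scaled by transcript length and library size. Psme2b, at a mean of 1.002 FPKM, lay just inside this limit and Tlcd2, at 0.9998 FPKM, just outside it. All tumors were formed in C57BL/6 mice by YUMM1.7, a single mouse melanoma line with an activating Braf mutation and an engineered loss of Cdkn2a, and the host's own stroma and immune cells are part of each biopsy. Cdkn2a was at 4.95 to 8.36 FPKM in Prog and 2.33 to 5.71 FPKM in Res, but values per gene do not show which exons the reads came from and so do not test this loss. Both groups carry the inhibitor as their treatment: the labels call the Prog tumors resistant and the Res tumors residual or cytostatic. Untreated tumors of the same batch (Veh, n = 4) are quoted for their levels alone, and its tumors regressing on the inhibitor (Reg, n = 4) enter the model for their spread. A second batch holds resistant, large tumors (aPDL2_large, n = 2) and residual, small tumors (aPDL2_small, n = 2) of the same line on the inhibitor plus an antibody against PD-L2, a ligand of the T cell receptor PD-1, together with tumors resistant to the inhibitor without the antibody (Prog of batch 2, n = 3). The sources used here name neither the inhibitor nor its dose, and give neither the time on treatment nor the age of the mice. Tumors are numbered within each group, without a statement that each came from its own mouse, so p-values measure the spread between these biopsies, which may in part be technical.

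BRAF is a kinase that activates MEK, which activates ERK, and in Braf-mutant melanoma this cascade drives division through targets such as cyclin D1. Active ERK also induces its own brakes, the DUSP phosphatases and the Sprouty and Spred proteins, so the RNA of these genes is widely read as a measure of ERK output. BRAF inhibitors lower that output in sensitive cells, and resistance in melanoma often comes with its return.

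The 2 groups were far apart, and the Res libraries varied more among themselves than the Prog libraries did. Spearman correlations between libraries, across genes, lay between 0.967 and 0.981 among Prog, between 0.917 and 0.977 among Res, and between 0.745 and 0.886 for Prog with Res. On the first principal component, which held 73.6% of the variance, the Prog libraries lay from 53.4 to 63.71, Res 2, 3 and 4 from -74.78 to -73.4, and Res 1 and Res 5 nearer to Prog at -43.67 and -26.76. Res 1 also stood apart by keratin genes of skin: the keratinocyte list summed to 678.9 FPKM there, against 7.752 to 16.5 FPKM in the other Res libraries and 5.088 to 9.858 FPKM in Prog. Counts per list without these 2 libraries are given where they move by over 1.5 times, and in some other cases. The depth behind each value is unknown, as the table holds no counts. For columns of single values, the FPKM step made by 1 fragment was estimated from low values, relative to Prog 1. It was 1.064 in Prog 3, 0.92 in Res 4 and 1.765 in Res 2, where a larger step means fewer fragments. FPKM sums were 559101 to 688972 in Prog and 630248 to 1089203 in Res, of which the microRNA gene listed as Mir2137 took 0 to 17.59% in Prog and 14.4 to 54.37% in Res.

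Of the 12190 genes, 8865 were called at an adjusted p below 0.05 in limma, 4899 of them higher in Prog (40.2% of genes tested) and 3966 lower (32.5%). At least 2-fold changes were called in 1438 genes that were higher in Prog (11.8%) and 1755 that were lower (14.4%), and at least 8-fold changes in 93 (0.763%) and 102 genes (0.837%). In 3669 genes (30.1%) every Prog value lay above every Res value, and in 2910 (23.9%) below, 6579 genes in all (54%). An unadjusted p below 0.05 was found for 9109 genes (74.7%). The shares of 40.2% higher and 32.5% lower are the background for each count per list below. The median log2 change over all genes was 0.083, with the 5th percentile at -1.871 and the 95th at 1.542, on the log2(FPKM + 1) scale used for every change below, which understates the change of genes of low expression. In bulk tissue, fewer cells of a type and less RNA per cell cannot be told apart. Macrophage markers, which summed to 601.1 to 924.9 FPKM in Prog against 6486 to 17320 FPKM in Res, move with every result below, and the part of cell content in the other differences was not tested.

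**Figure D1:**
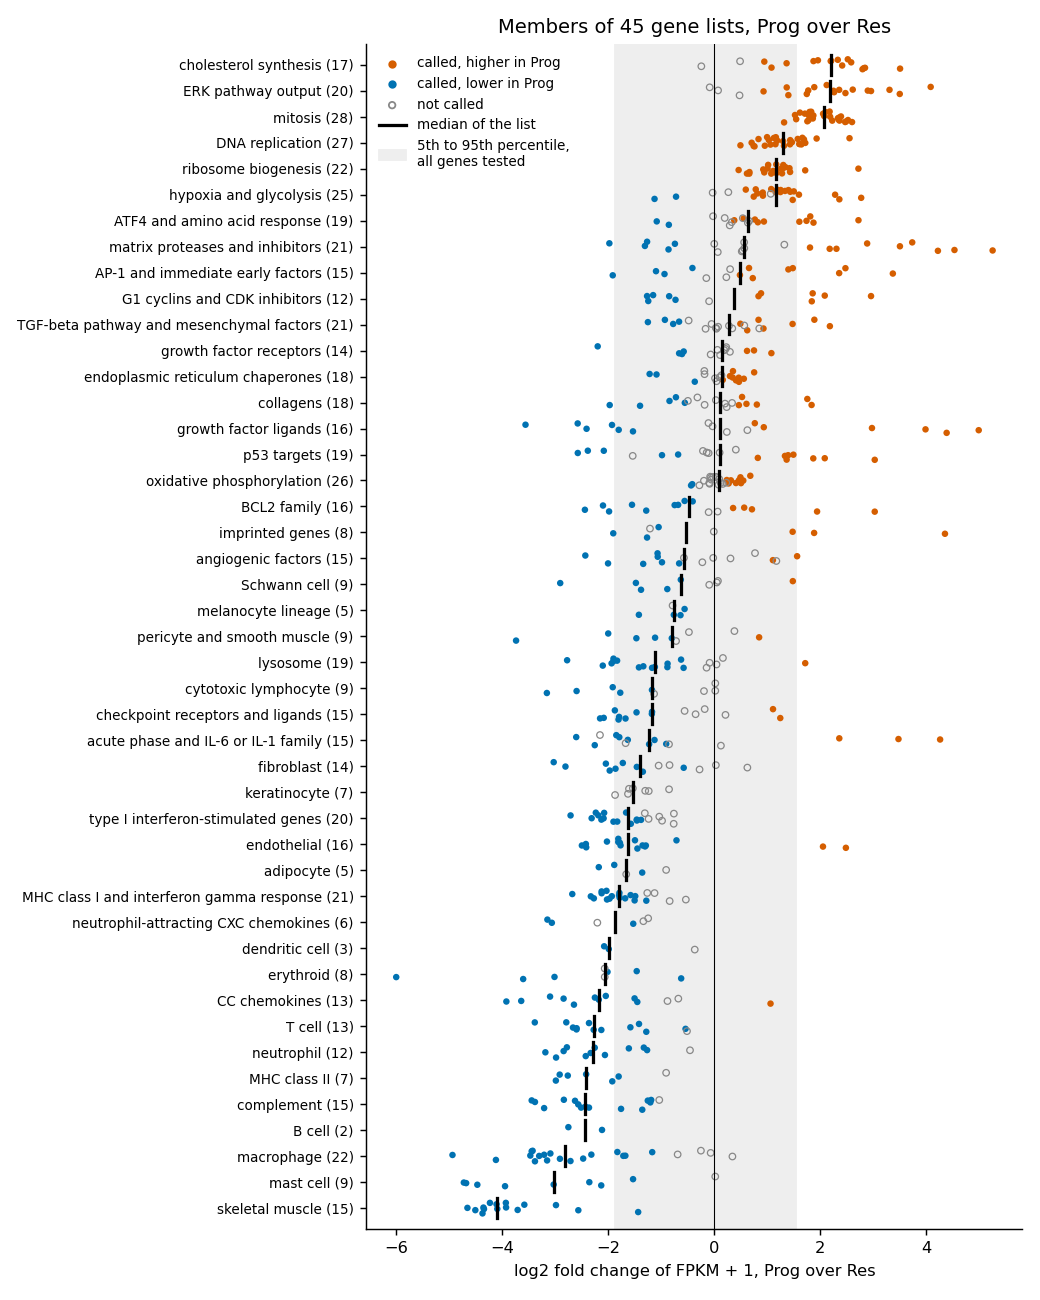
Log2 change of FPKM + 1, Prog (n = 5) over Res (n = 5), of each tested member of 45 gene lists, with the number of tested members in parentheses. Orange and blue points are genes called higher and lower in Prog, open points were not called, black bars are list medians and the grey band spans -1.871 to 1.542. Cholesterol synthesis, ERK output and mitosis have the 3 highest medians (2.208, 2.188 and 2.066), and skeletal muscle, mast cell and macrophage markers the 3 lowest (-4.095, -3.03 and -2.813).

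ERK output genes were higher in resistant than in residual tumors. Of 20 tested members of the list, 17 rose, none fell, and their median log2 change was 2.188. Dusp6, a phosphatase that inactivates ERK, had 257, 213, 215, 227 and 194 FPKM in Prog 1 to 5, against 30.7, 29.4, 24.2, 32.5 and 74.2 FPKM in Res 1 to 5. The groups did not overlap, and Res 5 stood above the other 4 Res libraries. The log2 change of Dusp6 was 2.62 ± 0.22 (SE; adjusted p = 1.01e-07, limma). Spry4, a Sprouty inhibitor of receptor to ERK signaling, had 117, 135, 150, 108 and 126 FPKM in Prog, against 15.3, 7.78, 7.7, 9.5 and 25.9 FPKM in Res (log2 change 3.31 ± 0.26, adjusted p = 6.64e-08). Ccnd1, the gene of cyclin D1, had 356, 332, 438, 408 and 312 FPKM in Prog, against 70.3, 35.1, 25.2, 34 and 97.8 FPKM in Res (2.96 ± 0.27, adjusted p = 2.44e-07). For both genes every Prog library was above every Res library, and Res 5 was the highest of its group. Dusp4, another ERK phosphatase, named after its values were seen, averaged 95.5 ± 18.04 FPKM in Prog and 5.83 ± 5.69 FPKM in Res (SD, n = 5 each). Levels also differed from those of the untreated tumors: Dusp6 was at 84 to 124 FPKM, Spry4 at 42.6 to 76.4 FPKM and Ccnd1 at 262 to 347 FPKM in Veh, so that the Prog range lay above Veh for Dusp6 and Spry4 and overlapped it for Ccnd1. Not every member rose. Spry1, a Sprouty like Spry4, had 21.8 ± 10.4 FPKM in Prog and 18.7 ± 1.85 FPKM in Res, and Etv1 and Il1rl1 were the other members not called; all 3 overlapped between the groups. Etv1 was called higher without Prog 2 (adjusted p = 0.0227) or Res 5 (0.0103). Res 5 had the lowest macrophage sum of its group. Summed over the ERK output list it was the highest Res library, at 1516 FPKM against 294 to 728.2 FPKM in Res 1 to 4. Il1rl1, which was not called, made up 500 FPKM of this sum in Res 5, against 15.9 to 87.7 FPKM in Res 1 to 4.

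Immediate early transcription factors, which many growth and stress signals induce within minutes, moved in both directions. Of 15 members, 8 rose and 4 fell, with a median of 0.486, where 40.2% of all genes tested rose and 32.5% fell. Egr3 and Egr1, zinc finger factors downstream of ERK, rose by 3.37 ± 0.40 and 2.36 ± 0.40 (adjusted p = 2.37e-06 and 6.93e-05, limma). Egr3 had 56, 65.5, 72.4, 56.4 and 55 FPKM in Prog, against 6.79, 4.06, 2.53, 2.14 and 16.2 FPKM in Res, without overlap. The 4 that fell were Fos, Fosl2, Jund and Atf3, all components of AP-1 or of related dimers. Fosl2, whose log2 change was -0.41, lost its call when any of Prog 1, 2, 3 and 5 or Res 2, 3 and 5 was left out (adjusted p from 0.0506 to 0.113). Atf3, a stress-induced factor, was at 1.46 to 2.59 FPKM in Prog and at 6.33 to 18.5 FPKM in Res. With the libraries whose columns look like means of a pair (Prog 2, 4 and 5, Res 1, 3 and 5), 5 members rose, and with the columns of single values (Prog 1 and 3, Res 2 and 4), 2 fell.

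Ligands of the EGF receptor family were among the strongest rises. Areg, amphiregulin, had 178, 252, 169, 79.3 and 129 FPKM in Prog, against 7.24, 0.922, 2.04, 0.85 and 26.7 FPKM in Res (log2 change 4.99 ± 0.80, adjusted p = 3.92e-05, limma). Btc, betacellulin, had 56.5, 56.1, 64.2, 44.4 and 52.5 FPKM in Prog, against 1.32, 2.2, 1.48, 0.888 and 2.72 FPKM in Res (4.39 ± 0.43, adjusted p = 3.88e-07). Neither gene overlapped between the groups, and Res 5 was again the highest Res library for both. Their levels in Veh were 2.71 to 6.63 FPKM for Areg and 5.6 to 16.3 FPKM for Btc. Hbegf, a heparin-binding EGF-like ligand, and Ereg, epiregulin, both named after their values were seen, rose by 3.99 ± 0.45 and 2.98 ± 0.94, but Ereg in Res 5 was at 151 FPKM, inside the Prog range of 70 to 166 FPKM. Ereg, Areg and Btc lie next to each other on chromosome 5 in the order of tested genes. Other growth factor ligands fell. Gas6, the ligand of the AXL, MERTK and TYRO3 receptors, had 7.21, 1.45, 3.49, 2.57 and 1.9 FPKM in Prog, against 50.5, 52.9, 51.1, 54.2 and 26 FPKM in Res (-3.56 ± 0.33, adjusted p = 2.48e-07). Pdgfb, a growth factor for pericytes and fibroblasts, fell by 2.58 on the log2 scale. In all, 6 of 16 tested ligands rose and 6 fell, against 40.2% and 32.5% of all genes tested. Their median was 0.104, and 8 rose when Res 1 and Res 5 were left out.

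The receptors of such factors moved in both directions as well, where 40.2% of all genes tested rose and 32.5% fell. Of 14 tested growth factor receptors 3 rose (Egfr, Tyro3 and Pdgfrb) and 4 fell (Erbb2, Pdgfra, Kit and Ddr1), around a median of 0.152. Without Res 5 the number that rose was 5. Pdgfrb, a PDGF receptor, had 135, 108, 136, 118 and 104 FPKM in Prog, against 91.9, 71.5, 71.7, 71.8 and 81.8 FPKM in Res, with a small but non-overlapping log2 change of 0.62 ± 0.10 (adjusted p = 5.51e-05, limma). Axl, a receptor kinase often high in melanomas of low MITF, was at 157 to 204 FPKM in Prog and 120 to 193 FPKM in Res and was not called (0.19 ± 0.12, adjusted p = 0.167). Kit, which melanocytes and mast cells use as a survival receptor, fell by 2.20 on the log2 scale together with the mast cell markers described below.

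Braf itself, named after its values were seen, was higher in the 5 Prog tumors of batch 1 than in the Res tumors, and not in the resistant tumors of batch 2. It had 51.3, 43.5, 44.4, 31.9 and 49.7 FPKM in Prog, against 5.48, 5.11, 4.12, 5.97 and 7.35 FPKM in Res, and 3.52 to 4.52 FPKM in Veh. The log2 change was 2.77 ± 0.13 (adjusted p = 1.85e-09, limma), and the Prog range lay above every library of the other groups: Braf was at 4.59, 4.33 and 5.69 FPKM in Prog of batch 2, at 5.32 and 5 FPKM in aPDL2_large, and at 5.93 and 4.69 FPKM in aPDL2_small. Of the 5 tested genes on each side of Braf on chromosome 6, Slc37a3, Mkrn1, Dennd2a, Adck2, Ndufb2, Mrps33, Agk and Ssbp1 were called higher as well, making 9 of the 11 genes with Braf, where 40.2% of all genes tested were called higher. The changes of Slc37a3, Dennd2a, Braf and Mrps33 lay between 2.61 and 3.18. Mrps33, a mitochondrial ribosome protein and the next tested gene, had 322, 359, 328, 184 and 296 FPKM in Prog, against 34.7, 50.3, 47, 32.3 and 41.4 FPKM in Res. Ssbp1, 3 tested genes from Braf, was not even among the resistant tumors, with 33.1, 225, 142, 38 and 137 FPKM in Prog, against 20, 19.6, 24.8, 16.5 and 20.8 FPKM in Res. Agk was likewise high in Prog 2, 3 and 5 and low in Prog 1 and 4, at 66.5, 42.5 and 45 FPKM in Prog 2, 3 and 5 and at 14.3 and 14.2 FPKM in Prog 1 and 4, against 10.7 to 12.9 FPKM in Res. One gene further, the taste receptor gene Tas2r137 was at 22.7 FPKM in Prog 5, at most 0.154 FPKM in the other Prog libraries and listed at 0 in all Res libraries. The next gene, Clec5a, did not differ by call (-0.37 ± 0.23, adjusted p = 0.153).

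**Figure D2:**
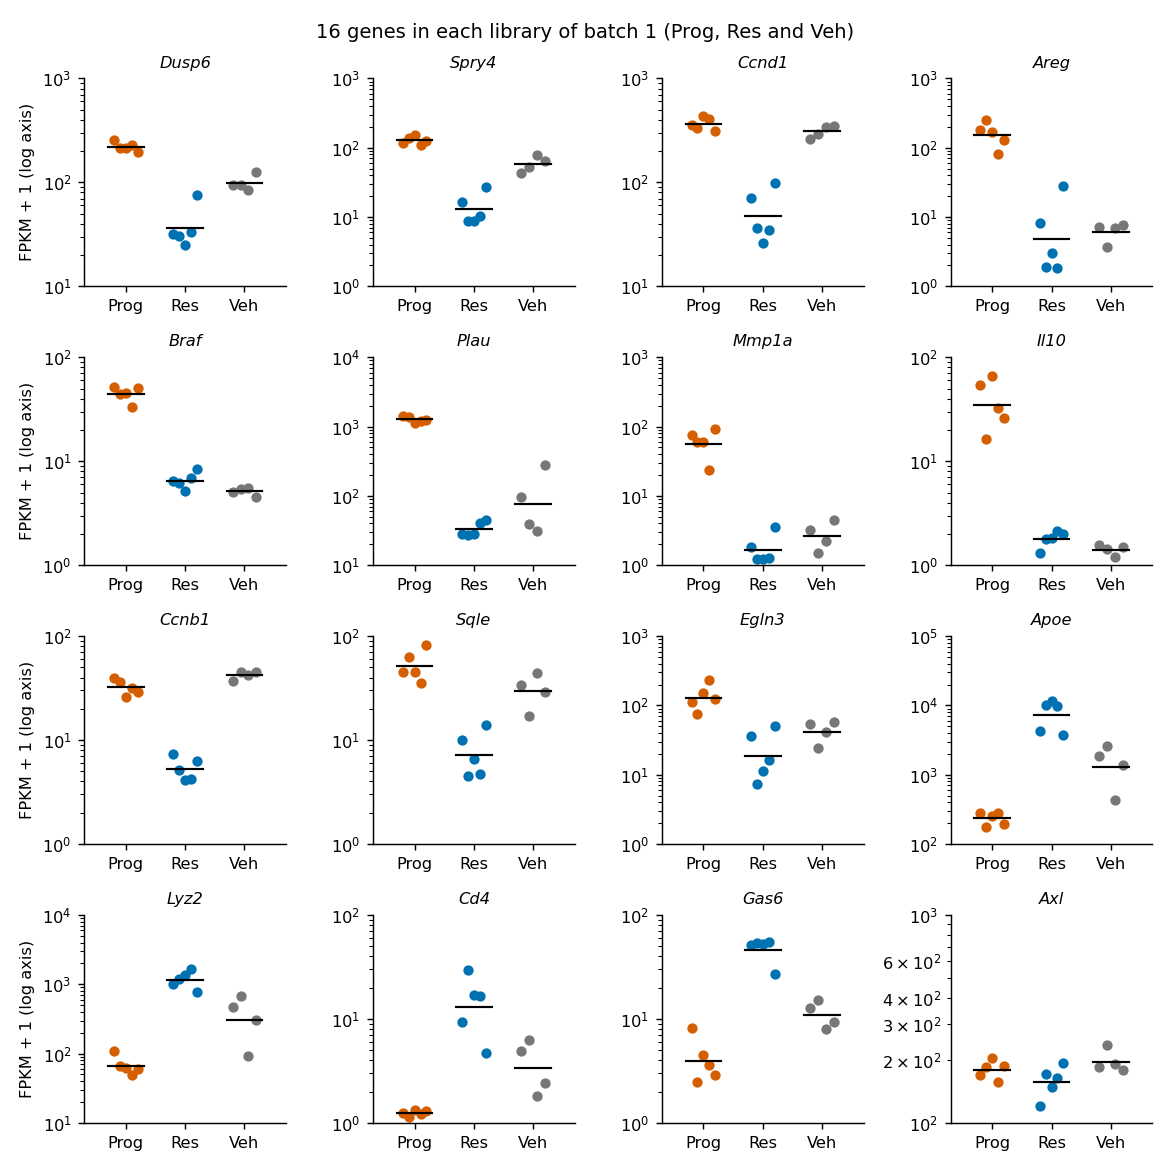
FPKM + 1 on a log axis of 16 genes in each library of Prog (n = 5, orange), Res (n = 5, blue) and Veh (n = 4, grey), with horizontal bars at geometric means. The first 11 genes in reading order lie higher in every Prog than in every Res library, Apoe, Lyz2, Cd4 and Gas6 lie lower in every Prog library, and the ranges of Axl overlap (157 to 204 FPKM in Prog, 120 to 193 FPKM in Res).

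Genes of mitosis rose without exception. All 28 members of the list, which holds cyclins, kinases, kinesins and kinetochore proteins, were called higher in Prog, with a median log2 change of 2.066 and a range from 1.32 to 2.60. Ccnb1, the gene of cyclin B1, had 38.6, 35.1, 25.2, 31 and 27.9 FPKM in Prog, against 6.35, 4.14, 3.16, 3.27 and 5.26 FPKM in Res (2.60 ± 0.15, adjusted p = 3.9e-09, limma). Cdc20, an activator of the anaphase-promoting complex, averaged 42.7 ± 10.5 FPKM in Prog and 7.55 ± 1.47 FPKM in Res, and Tpx2, a spindle assembly factor, averaged 25.4 ± 5.32 and 4.14 ± 1.23 FPKM in the same groups. Mki67, the gene of the proliferation antigen Ki-67, had 21.8, 15.8, 12.4, 21.4 and 14.1 FPKM in Prog, against 6.82, 3.34, 3.97, 4.2 and 3.47 FPKM in Res (1.76 ± 0.16, adjusted p = 2.25e-07). No Res library reached a Prog library in any of these 4 genes. In Veh, Ccnb1 was at 35.8 to 44.1 FPKM and Mki67 at 26 to 28.4 FPKM, both reaching above the Prog range.

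Many mitosis promoters carry 2 short elements, CCAAT and the cell cycle gene homology region (CHR), through which the DREAM complex is known to repress them in resting cells. The 120 bases before the transcription start of 3 risen members that hold both are shown to make these elements visible. They are from the RefSeq promoter table on GRCm38.p6. Capitals mark CCAAT or its reverse complement ATTGG and the CHR letters TTTGAA or their reverse complement TTCAAA. No match of one overlaps a match of the other.
Cdc20, chr4:118437344-118437463, minus strand: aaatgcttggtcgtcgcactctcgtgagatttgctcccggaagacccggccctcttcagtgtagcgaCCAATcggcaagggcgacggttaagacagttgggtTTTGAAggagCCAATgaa
Ube2c, chr2:164769809-164769928, plus strand: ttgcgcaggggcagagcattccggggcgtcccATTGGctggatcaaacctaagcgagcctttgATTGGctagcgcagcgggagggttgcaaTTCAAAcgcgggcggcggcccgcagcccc
Top2a, chr11:99024190-99024309, minus strand: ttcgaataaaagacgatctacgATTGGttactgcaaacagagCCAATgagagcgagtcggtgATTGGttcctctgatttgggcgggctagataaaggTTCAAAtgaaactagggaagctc
The CHR letters start 18, 29 and 23 bases before the start in Cdc20, Ube2c and Top2a, each downstream of at least 1 CCAAT. The promoter of Ccnb1, looked at with these 3, held CCAAT 99 and 67 bases before its start and no CHR letters in the window. Ube2c, a ubiquitin-conjugating enzyme of mitosis, averaged 102 ± 22.7 FPKM in Prog and 18.8 ± 4.78 FPKM in Res, and Top2a, a topoisomerase that untangles sister chromatids, averaged 53.7 ± 9.995 and 9.17 ± 3.61 FPKM in the same groups. Of 24 list members with a promoter in the table, CHR letters were found in 8 (33.3%), CCAAT in 17 (70.8%) and both in 6 (25%). Of 9131 tested genes with a promoter, the shares in the same window were 4.95%, 28.3% and 1.46%.

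DNA replication genes rose as uniformly but by less. All 27 members were called higher, with a median of 1.301 and a range from 0.50 to 2.55. Mcm7, a subunit of the replicative helicase, had 46.5, 44.7, 39.6, 44 and 44 FPKM in Prog, against 17, 16, 15.4, 13.4 and 16.4 FPKM in Res (1.43 ± 0.07, adjusted p = 3.21e-09, limma). Mcm4 and Mcm6 of the same helicase rose by 1.44 ± 0.08 and 1.69 ± 0.09. The spread within each group was small for all 3. At the G1 to S boundary, 6 of 12 cyclins, kinases and inhibitors rose and 5 fell, against 40.2% and 32.5% of all genes tested. Ccne1 and Ccne2, the E cyclins of S phase entry, rose by 1.86 ± 0.19 and 1.84 ± 0.17, while Ccnd2 and Ccnd3, the other D cyclins, fell by 0.73 and 1.24 on the log2 scale. Ccnd2 lost its call when any of Prog 2, 3 and 4 or Res 2, 3, 4 and 5 was left out (adjusted p from 0.0546 to 0.129). Among the inhibitors, Cdkn1a (p21) rose, with 176, 228, 278, 180 and 202 FPKM in Prog, against 87.8, 35.6, 36, 33.8 and 70.5 FPKM in Res, and Cdkn1b (p27), Cdkn1c (p57) and Cdkn2c (p18) fell. Cdkn1a is also on the list of p53 targets. Of its 19 members 8 rose and 5 fell around a median of 0.102, near the 40.2% and 32.5% of all genes tested. Mdm2, the p53 ubiquitin ligase, and Pmaip1, the BH3-only protein NOXA, rose with Cdkn1a. Sesn1, a stress-responsive inhibitor of mTORC1, was at 2.38 to 4.08 FPKM in Prog and at 12.6 to 29.4 FPKM in Res, and the death receptor gene Fas was at 1.34 to 2.19 FPKM in Prog and at 10.5 to 28.4 FPKM in Res; both fell without overlap.

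BCL2 family genes, which set the threshold for apoptosis, fell more often than they rose: 5 of 16 rose and 9 fell (median -0.482). The shares over all genes tested were 40.2% and 32.5%. Bmf, a BH3-only protein that promotes apoptosis, had 3.7, 2.42, 3.02, 4.62 and 2.79 FPKM in Prog, against 21.8, 28.6, 26.2, 25.1 and 12.5 FPKM in Res (-2.44 ± 0.27, adjusted p = 1.04e-06, limma). Bid fell by 1.28 and Bcl2 by 0.75 on the log2 scale, while Bok, a BAX relative, rose by 1.94 ± 0.29. Bcl2l11 (BIM), the BH3-only protein that ERK is known to restrain, was at 24.8 FPKM on average in Prog and 23.7 FPKM in Res and was not called. The Bcl2a1 copies, which fell, are near-identical and share reads, so their separate values are uncertain.

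Cholesterol synthesis had the highest median of all 45 lists, 2.208. Of 17 tested members, 15 rose and none fell. Sqle, squalene epoxidase, named after its values were seen, had 44.6, 61.4, 44.3, 34.3 and 81.2 FPKM in Prog, against 8.99, 3.48, 5.55, 3.77 and 12.8 FPKM in Res (2.85 ± 0.41, adjusted p = 1.43e-05, limma). Prog 5 was the highest library and Res 5 the highest of its group, without overlap. Srebf2, the transcription factor of the pathway, rose by 1.96 ± 0.24. The members not called were Mvk and Fdft1, and Hmgcs1 was listed at 0 in every library of both groups. In Veh, Sqle was at 16 to 43.3 FPKM.

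Glycolytic and hypoxia-induced genes were higher too: 20 of 25 rose and 2 fell, with a median of 1.161. Egln3, a prolyl hydroxylase that hypoxia induces, had 109, 73.4, 150, 233 and 125 FPKM in Prog, against 35.5, 6.3, 10.2, 15.1 and 49.3 FPKM in Res (2.78 ± 0.47, adjusted p = 6.55e-05, limma). Hk1, a hexokinase, and P4ha1, a collagen prolyl hydroxylase, rose by 0.92 ± 0.16 and 1.26 ± 0.25. Every glycolytic enzyme on the list from hexokinase to lactate dehydrogenase rose, with Pkm, a pyruvate kinase, at 1515 FPKM on average in Prog and 611 FPKM in Res. The 2 that fell were Pfkfb3 and Pfkfb4, which make the activator of phosphofructokinase; Car9, Adm and Slc16a3 were not called, though Adm was called higher without Res 5 (adjusted p = 0.0302). Of 26 genes of oxidative phosphorylation 9 rose, where 40.2% of all genes tested did, and 2 fell, where 32.5% did, around a median of 0.089. Cox7b rose by 0.50 and Sdhc fell by 0.41 on the log2 scale.

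Ribosome biogenesis genes rose in all 22 members (median 1.171). Npm1, nucleophosmin, had 766, 863, 790, 735 and 757 FPKM in Prog, against 334, 318, 290, 270 and 378 FPKM in Res (1.30 ± 0.10, adjusted p = 4.61e-08, limma). Ncl, nucleolin, and Dkc1, a pseudouridine synthase, rose by 1.17 and 1.29. Of 19 genes of the ATF4 and amino acid response 10 rose and 2 fell (median 0.635), against 40.2% and 32.5% of all genes tested. Psat1, an enzyme of serine synthesis, had 88, 80.6, 83.5, 73.9 and 89.9 FPKM in Prog, against 16.3, 11.3, 9.22, 10.7 and 12 FPKM in Res (2.72 ± 0.22, adjusted p = 9.12e-08). Slc7a5, a transporter of large neutral amino acids, and Shmt2, a mitochondrial enzyme of one-carbon metabolism, rose by 1.81 ± 0.14 and 1.61 ± 0.18, while Phgdh, the first enzyme of serine synthesis, was not called at 27.0 FPKM in Prog and 25.7 FPKM in Res. Endoplasmic reticulum chaperones had small changes, with 9 of 18 higher and 3 lower around 0.150, against 40.2% and 32.5% of all genes tested. Hyou1 rose by 0.75, and Herpud1 and Sdf2l1, both induced by unfolded proteins, fell by 1.09 and 1.22 on the log2 scale. Of the chaperones, 3 rose in the columns of single values and 4 in the columns that look like means.

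The tumors expressed almost no pigment genes. Tyr, tyrosinase, was at 0.0343 to 0.102 FPKM in Prog and 0.0122 to 0.12 FPKM in Res, and Tyrp1, Dct, Pmel and Mlana stayed under 1 FPKM in all 10 libraries. Mitf, the master factor of melanocytes, had 7.15, 2.65, 4.23, 4.72 and 3.1 FPKM in Prog, against 5.79, 8.98, 6.76, 10.5 and 4.48 FPKM in Res. The groups overlapped, and the fall of 0.64 on the log2 scale (adjusted p = 0.0226, limma) lost its call without Prog 2, Prog 5, Res 2 or Res 4 (adjusted p from 0.0588 to 0.0681). Pax3, Gpnmb and Ednrb were called lower too, making 4 of 5 tested lineage genes, and without Res 4 the number was 1. Gpnmb, which macrophages also express, lost its call without Prog 1 (adjusted p = 0.0635), Res 3 (0.0579) or Res 4 (0.0632), and Ednrb without Prog 4 (0.0612) or Res 4 (0.0584). Sox10, a neural crest factor, was at 0.912 to 7.33 FPKM in Prog and 1.18 to 10.7 FPKM in Res and was not called; it was called lower without Res 1 (adjusted p = 0.0448), with library weights (0.0216) and in the columns of single values (0.0168).

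Mesenchymal and matrix genes moved in both directions, where 40.2% of all genes tested rose and 32.5% fell. Cdh2, N-cadherin, had 39.3, 55.2, 54.2, 41.8 and 47.1 FPKM in Prog, against 16.7, 11.4, 9.11, 12.3 and 11.5 FPKM in Res (1.89 ± 0.18, adjusted p = 3.5e-07, limma), while Snai2 and Tgfb3 fell by 0.93 and 0.77 on the log2 scale; 7 of 21 genes of that list rose and 4 fell. Of 18 collagens, 6 rose and 5 fell around 0.118. Col6a3, a collagen VI chain, had 535, 593, 706, 588 and 554 FPKM in Prog, against 230, 104, 122, 140 and 299 FPKM in Res, and Col5a3 rose by 1.76. Col1a2, Col3a1 and Col14a1, chains made by fibroblasts, fell with Col11a1 and Col16a1. With the columns of single values 3 collagens fell, and with the columns that look like means 2 rose.

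Secreted proteases of the extracellular matrix held several of the largest rises. Plau, urokinase, which activates plasminogen, had 1406, 1371, 1126, 1208 and 1244 FPKM in Prog, against 27.1, 26.7, 27.1, 39.7 and 44 FPKM in Res, and 30.2 to 277 FPKM in Veh (log2 change 5.26 ± 0.55, adjusted p = 7.05e-07, limma). Plat, the tissue plasminogen activator, had 259, 215, 299, 195 and 239 FPKM in Prog, against 15.5, 19.5, 14.4, 25.7 and 28.9 FPKM in Res (3.51 ± 0.24, adjusted p = 1.6e-08). Mmp1a, an interstitial collagenase, had 73.5, 58.8, 59.2, 23 and 90.3 FPKM in Prog, against 0.861, 0.213, 0.241, 0.286 and 2.52 FPKM in Res (5.09 ± 0.51, adjusted p = 4.97e-07). None of the 3 overlapped between the groups. Mmp1b, a close copy of Mmp1a, rose by 4.54 ± 0.38, and how reads were divided between the copies is not known. Not all proteases rose. Of 21 listed proteases and inhibitors 9 rose and 5 fell, against 40.2% and 32.5% of all genes tested, and the median was 0.568. The 5 were Mmp2, Mmp8, Mmp11, Adamts1 and Timp2, and Mmp11, stromelysin-3, fell by 1.98 on the log2 scale. Without Res 1 and Res 5 the number that rose was 13, and in the columns of single values it was 14.

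The risen collagenases and stromelysins share a stretch of chromosome 9, and their promoters hold the letters of the element bound by AP-1, the dimer of FOS and JUN proteins that ERK signaling is known to activate. Mmp13, Mmp1b, Mmp3, Mmp1a and Mmp10 were called higher along 6 successive tested genes, with Mmp12 among them not called (1.32 ± 0.61, adjusted p = 0.0617, limma). Mmp12 was called higher without Res 1 (adjusted p = 0.00323) or Res 5 (0.042), with library weights (0.00111) and in the columns of single values (0.049). Mmp13 overlapped between the groups: Prog 1 was at 139 FPKM, the other Prog libraries at 23.5 to 40 FPKM and Res 1 at 26.3 FPKM. Its call was lost in the columns that look like means (adjusted p = 0.354, limma). The next 4 genes beyond Mmp10, which were Mmp8, Mmp27, Tmem123 and Birc2, were called lower. The 120 bases before the start of the 5 risen genes are shown with the AP-1 letters TGANTCA, which read the same on both strands, in capitals.
Mmp13, chr9:7272394-7272513, plus strand: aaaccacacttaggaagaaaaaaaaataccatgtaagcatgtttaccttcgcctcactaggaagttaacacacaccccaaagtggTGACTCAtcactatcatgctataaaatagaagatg
Mmp1b, chr9:7388027-7388146, minus strand: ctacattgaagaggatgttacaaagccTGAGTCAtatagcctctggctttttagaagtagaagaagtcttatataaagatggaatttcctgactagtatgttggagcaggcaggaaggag
Mmp3, chr9:7445702-7445821, plus strand: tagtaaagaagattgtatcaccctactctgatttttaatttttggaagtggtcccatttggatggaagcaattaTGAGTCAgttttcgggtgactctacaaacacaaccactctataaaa
Mmp1a, chr9:7464021-7464140, plus strand: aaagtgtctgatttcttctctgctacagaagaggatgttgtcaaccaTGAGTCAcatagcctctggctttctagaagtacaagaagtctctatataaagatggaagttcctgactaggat
Mmp10, chr9:7502222-7502341, plus strand: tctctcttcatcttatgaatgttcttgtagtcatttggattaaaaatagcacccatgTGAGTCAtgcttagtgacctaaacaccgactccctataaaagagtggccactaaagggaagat
The letters start 35 bases before the start in Mmp13, 93 in Mmp1b, 46 in Mmp3, 73 in Mmp1a and 63 in Mmp10. Among the listed proteases and inhibitors with a promoter in the table, 7 of 14 (50%) held these letters in the window, against 2.98% of tested genes with a promoter. Mmp12 and Serpinb2, which were not called, were among the 7, and Mmp1a is not on that list. Mmp3 had 2399, 3623, 3786, 2451 and 2194 FPKM in Prog, against 1661, 87.7, 337, 162 and 982 FPKM in Res. Mmp10 had 553, 294, 281, 114 and 231 FPKM in Prog, against 28.7, 3.78, 10.2, 5.5 and 51.1 FPKM in Res. Res 1 and Res 5 were the highest Res libraries for both.

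**Figure D3:**
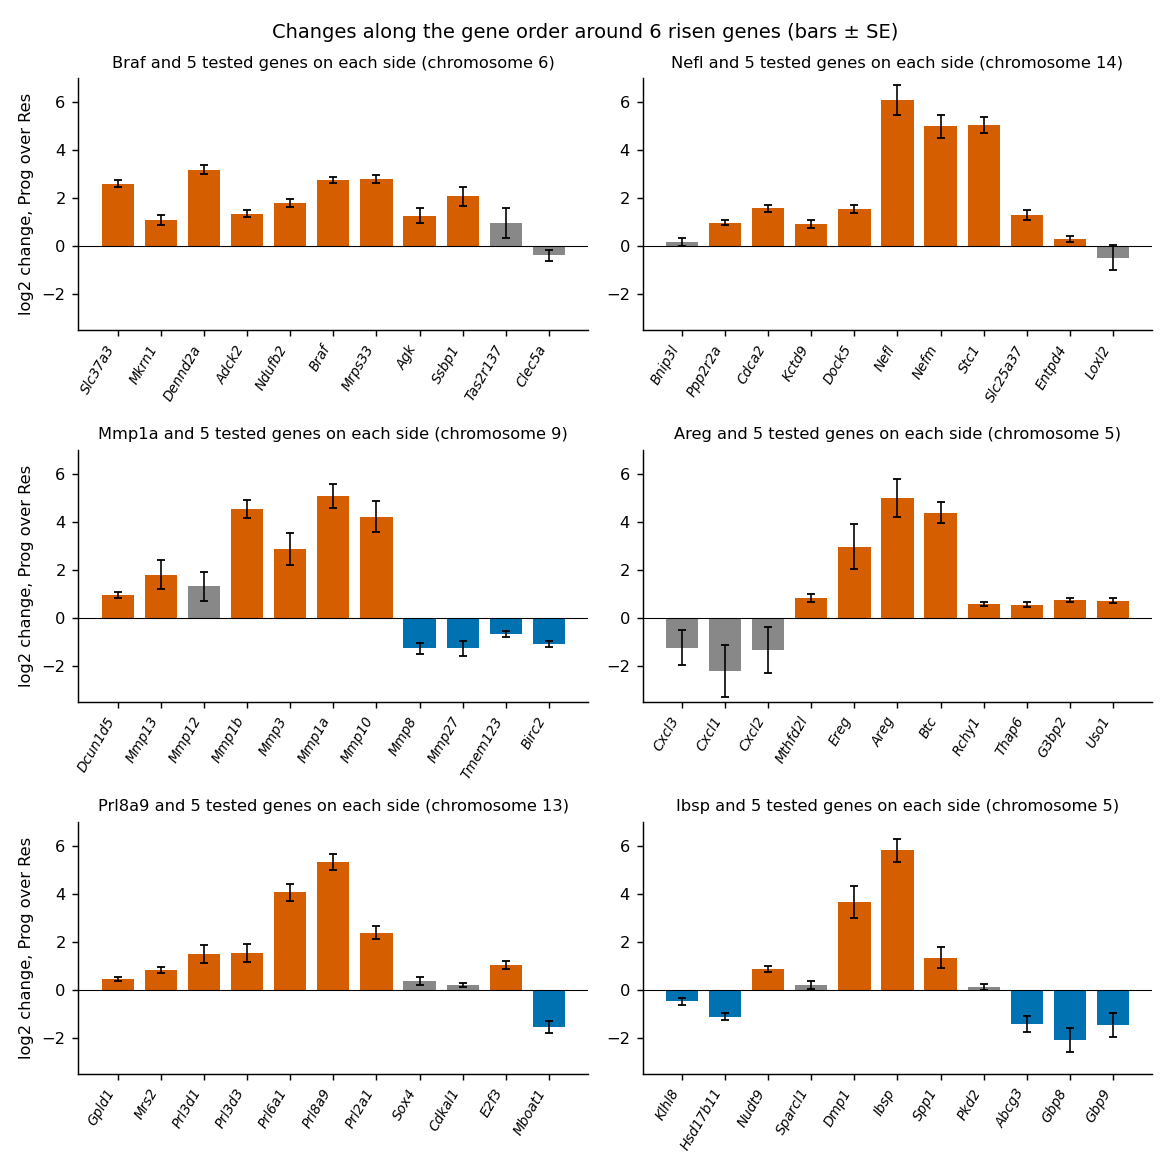
Log2 change of FPKM + 1, Prog (n = 5) over Res (n = 5), of 6 risen genes and the 5 tested genes on each side in the order of the RefSeq annotation; bars are ± SE, orange and blue bars were called higher and lower in Prog, and grey bars were not called. Around Braf 9 of 11 genes were called higher, and on chromosome 9 the change turns from 4.22 at Mmp10 to -1.27 at Mmp8.

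Nefl, the light neurofilament, had the largest called rise, with 128, 174, 221, 112 and 242 FPKM in Prog, against 0.21, 4.48, 1.98, 1.57 and 0.755 FPKM in Res (6.10 ± 0.61, adjusted p = 4.65e-07, limma). Its neighbours on chromosome 14, Nefm, the medium neurofilament, and Stc1, the secreted hormone stanniocalcin, rose by 5.00 ± 0.48 and 5.07 ± 0.34. In Veh, Nefl was at 4.86 to 76 FPKM and Stc1 at 13.3 to 22.1 FPKM. Esp15, which belongs to the exocrine gland-secreted peptides, had 89.9, 86.4, 103, 11.7 and 164 FPKM in Prog, against 0.0991, 0.0657, 0.176, 0.0576 and 0.309 FPKM in Res (5.95 ± 0.47, adjusted p = 6.06e-08). Prl8a9, a prolactin family gene otherwise known from placenta, had 27.5, 50.2, 41.4, 23.3 and 112 FPKM in Prog, against 0.113, 0, 0.0219, 0.0258 and 0.392 FPKM in Res. Its neighbours among tested genes on chromosome 13, Prl3d1, Prl3d3, Prl6a1 and Prl2a1, were called higher as well. Each averaged at most 0.138 FPKM in Res, so they passed the filter only through Prog. A prolactin gene low in both groups was not tested, so the shared direction is partly set by the filter. Prl3d1 and Prl3d3 lost their calls in the columns of single values (adjusted p = 0.102 and 0.0738, limma). Prl3d1 and Prl3d3 are close copies of each other, and how reads were divided between them is not known. These prolactin genes and Esp15 were also close to 0 in Veh, where Esp15 was at 0.0462 to 0.11 FPKM and Prl8a9 at 0.0891 to 1.13 FPKM.

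Ibsp, a bone sialoprotein, had 141, 59.7, 212, 46.1 and 93 FPKM in Prog, against 1.3, 0.144, 0.274, 0.478 and 1.93 FPKM in Res (5.81 ± 0.47, adjusted p = 7.42e-08, limma). Dmp1 and Spp1, its neighbours and bone matrix phosphoproteins like it, rose by 3.65 ± 0.66 and 1.34 ± 0.45, and Spp1, osteopontin, overlapped between groups with 5164 to 7587 FPKM in Prog and 1437 to 5400 FPKM in Res. Spp1 lost its call in a fit of all 25 libraries (adjusted p = 0.427) and in the columns that look like means (0.197). The fit of all 25 includes Prog 1 of batch 2, where Spp1 was listed at 0 FPKM. Prog 2 and 3 of batch 2 were at 6384 and 5163 FPKM. The part of this value in the lost call was not tested. Pthlh, the parathyroid hormone-related protein, was at 102 to 202 FPKM in Prog and 3.19 to 7.3 FPKM in Res. Nppb, a natriuretic peptide, was at 184 to 653 FPKM in Prog and 3.77 to 55.3 FPKM in Res, and Chrna1, the muscle acetylcholine receptor subunit, was at 44.8 to 123 FPKM in Prog and 1.24 to 2.08 FPKM in Res. All 3 rose without overlap. Phlda2, an imprinted gene of distal chromosome 7, had 8.18, 36.8, 50.9, 36 and 39.7 FPKM in Prog, against 0.165, 1.62, 1.47, 0 and 0 FPKM in Res (4.36 ± 0.40, adjusted p = 2.18e-07). Of 8 tested imprinted genes 3 rose and 3 fell, against 40.2% and 32.5% of all genes tested. Igf2r and Mest rose, Mest without its call in the columns of single values (adjusted p = 0.0806), and H19, Meg3 and Cdkn1c fell. Meg3 lost its call without Res 4 (adjusted p = 0.0557).

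Cytokines were split between a few that rose and many that fell. Il10, an anti-inflammatory cytokine, had 52.6, 15.2, 65.4, 31.4 and 25 FPKM in Prog, against 0.324, 0.799, 0.81, 1.13 and 1.02 FPKM in Res, and 0.2 to 0.553 FPKM in Veh (4.26 ± 0.33, adjusted p = 4.74e-08, limma). Il33, an alarmin, had 138, 134, 351, 489 and 143 FPKM in Prog, against 58.6, 28.3, 28.3, 40.5 and 59.9 FPKM in Res (2.36 ± 0.45, adjusted p = 0.000198). The third that rose, Il11, overlapped between groups: Res 5 was at 300 FPKM and the Prog libraries were at 89.5 to 388 FPKM. Its call was lost without Res 2 or Res 4 (adjusted p = 0.0635 each). Csf1, the growth factor of macrophages, had 17.1, 10.2, 7.06, 11.2 and 7.81 FPKM in Prog, against 48.5, 30.1, 30.4, 35.2 and 59.4 FPKM in Res (-1.85 ± 0.26, adjusted p = 1.26e-05). With Il1a, Il1b, Il1rn, Tnf, Osm, Saa3 and Lcn2 it made up the 8 of 15 cytokine and acute phase genes that fell (median -1.228). Of all genes tested, 32.5% fell. Without Res 1 and Res 5 the number that fell was 5, and in the columns of single values it was 1. Il1rn lost its call when any of Prog 3 and 4 or Res 1, 4 and 5 was left out (adjusted p from 0.0532 to 0.0829). Il6 and Hp were lower on average but overlapped and were not called, though Il6 was called lower without Res 4 (0.0204) and Hp without Prog 2 (0.0115), Res 2 (0.0385) or Res 4 (0.035).

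Chemokines that draw in white blood cells were lower in resistant tumors. Of 13 CC chemokines 10 fell and 1 rose (median -2.179), where 32.5% of all genes tested fell. Ccl8, which attracts monocytes, had 112, 132, 89.3, 73 and 74.5 FPKM in Prog, against 1186, 1352, 1648, 1716 and 504 FPKM in Res (-3.64 ± 0.42, adjusted p = 1.7e-06, limma). Ccl12 and Ccl4 fell by 3.10 and 2.84 on the log2 scale, and Ccl5, a T cell chemokine, named after its values were seen, fell by 3.92. The one that rose, Ccl24, was at 0.758 to 3.2 FPKM in Prog and at most 0.661 FPKM in Res. In the columns of single values 4 CC chemokines fell, and Ccl4 was not among them (adjusted p = 0.053). Of 6 tested members of a CXC chemokine list, Cxcl5, Pf4 and Ppbp fell. Cxcl1, Cxcl2 and Cxcl3, which attract neutrophils, overlapped between the groups and were not called. Without Res 2 the number was 5, with Cxcl2 and Cxcl3 called, and in the columns that look like means it was 6. Cxcl1 was called lower without Prog 2 (adjusted p = 0.0474) or Res 4 (0.0341).

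Macrophage markers fell in 18 of 22 tested genes, with a median of -2.813 and none higher. Emr1, the gene of F4/80, had 5.14, 2.83, 5.28, 4.78 and 3.46 FPKM in Prog, against 41.4, 76.4, 62.8, 85.8 and 29.3 FPKM in Res, and 2.86 to 36.1 FPKM in Veh (-3.43 ± 0.54, adjusted p = 3.55e-05, limma). Apoe, an apolipoprotein that macrophages secrete, had 283, 177, 256, 282 and 191 FPKM in Prog, against 4312, 10281, 11778, 9700 and 3807 FPKM in Res (-4.94 ± 0.49, adjusted p = 4.2e-07). Lyz2, lysozyme, had 109, 64.4, 61.1, 47.9 and 58 FPKM in Prog, against 1003, 1195, 1356, 1657 and 764 FPKM in Res. The groups were separate for all 3, and Res 5 was the lowest Res library for each. Trem2, a lipid receptor of macrophages, fell by 2.91 on the log2 scale, and Clec4a1, a lectin receptor of myeloid cells, by 4.56. The 4 members that were not called were Mrc1, Cd163, Mertk and Msr1. Mrc1, the mannose receptor and a marker of alternatively activated macrophages, had 56.9, 28.5, 48.6, 31 and 30.6 FPKM in Prog, against 60.2, 48.1, 30.1, 53.1 and 39.5 FPKM in Res. Cd163, a scavenger receptor of such macrophages, was at 2.25 to 28.9 FPKM in Prog and 2.59 to 10.6 FPKM in Res. Both overlapped between the groups, whereas Emr1, Csf1r and Cd68, markers of macrophages in general, did not.

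Genes that macrophages share with other cells followed. Of 15 complement genes 14 fell (median -2.430), led by C1qb (-3.45), and Cfb was not called. C1qa, C1qb and C1qc are on the macrophage list too, so their falls are counted in both lists. Of 19 lysosomal genes 14 fell (median -1.120), among them Ctsd, cathepsin D, at 257 FPKM on average in Prog and 954 FPKM in Res. Ctsl, cathepsin L, was the one that rose, with 1362, 2236, 2644, 2543 and 2110 FPKM in Prog, against 636, 441, 482, 534 and 1545 FPKM in Res (1.72 ± 0.32, adjusted p = 0.000179, limma). Res 5 lay inside the Prog range for Ctsl.

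**Figure D4:**
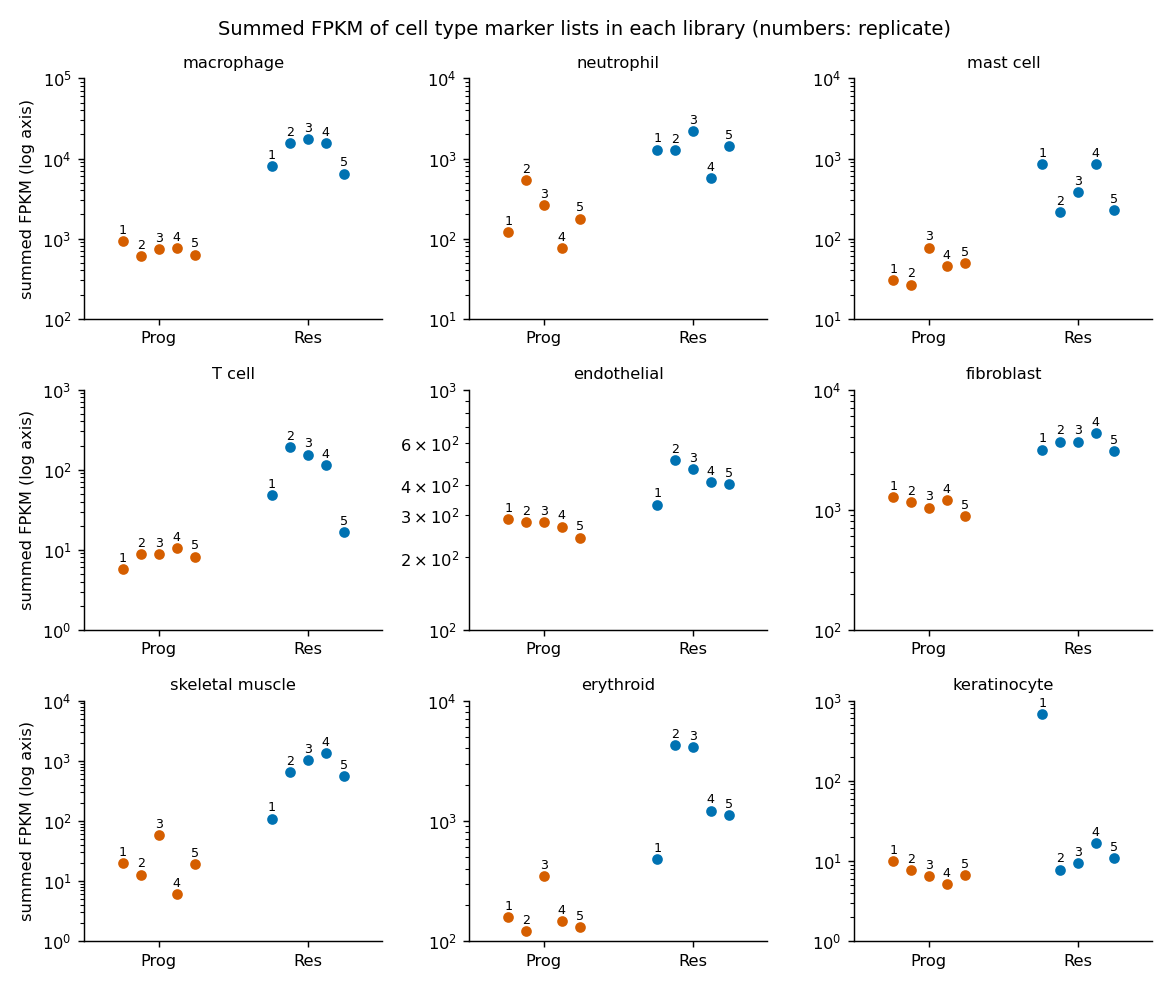
Summed FPKM, on log axes, of 9 lists of cell type markers in each Prog (orange) and Res (blue) library, with replicate numbers. Macrophage markers lie at 601.1 to 924.9 FPKM in Prog and 6486 to 17320 FPKM in Res, and keratinocyte markers are high in Res 1 alone (678.9 FPKM).

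Markers of other host cells were lower in Prog as well. Neutrophil markers fell in 11 of 12 genes (median -2.294), and S100a9, a subunit of calprotectin, was at 17.9 to 126 FPKM in Prog and 169 to 799 FPKM in Res. Mast cell markers fell in 8 of 9 genes (median -3.03). Cma1, a chymase, had 0.992, 0.27, 10.3, 4.33 and 4.28 FPKM in Prog, against 214, 50.9, 91, 225 and 44 FPKM in Res (-4.73 ± 0.97, adjusted p = 0.000399, limma), and the tryptase Tpsb2 and the carboxypeptidase Cpa3 fell by 4.68 and 4.47 on the log2 scale. The exception was Gata2, a factor of many blood lineages, at 22.8 FPKM in Prog and 22.9 FPKM in Res.

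T cell markers fell in 12 of 13 genes (median -2.275), at low levels throughout, where 32.5% of all genes tested fell. All 14 listed genes summed to 5.774 to 10.55 FPKM in Prog and 16.65 to 190.1 FPKM in Res. Members such as Cd4 and Cd8a, under 1 FPKM in every Prog library, passed the filter only through Res, which favors a fall. Cd4 had 0.24, 0.132, 0.33, 0.205 and 0.289 FPKM in Prog, against 8.26, 28.3, 16, 15.6 and 3.73 FPKM in Res (-3.39 ± 0.43, adjusted p = 4.2e-06, limma). Cd8a had 0.432, 0.484, 0.514, 0.757 and 0.376 FPKM in Prog, against 3.23, 12.2, 9.85, 9.25 and 1.02 FPKM in Res (-2.13 ± 0.55, adjusted p = 0.00243). Res 5 was the lowest Res library for both, and no library of the 2 groups overlapped. Of 13 listed genes of cytotoxic lymphocytes 9 were tested and 5 fell, among them Nkg7 (-3.16) and Klrd1 (-2.60), against 32.5% of all genes tested. The list summed to 9.789 to 23.64 FPKM in Prog and 13.04 to 132.6 FPKM in Res, so the filter favors a fall here as well. Gzma, Gzmb, Eomes and Klrb1c were not called, though Gzmb was called lower without Res 5 (adjusted p = 0.0361). Only 2 of 9 B cell genes and 3 of 9 dendritic cell genes were tested. The B cell genes Cd22 and Cd79b fell, the dendritic cell genes Batf3 and Ccr7 fell, and Itgax was not called. All 9 B cell genes summed to 0.509 to 2.54 FPKM in Prog and 3.83 to 22.9 FPKM in Res. The 2 tested thus passed the filter mainly through Res, which favors a fall.

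Endothelial markers fell in 14 of 16 genes (median -1.632), and Esam, an adhesion molecule of endothelial cells, had 3.68, 3.84, 2.6, 2.45 and 3.5 FPKM in Prog, against 15, 31.6, 28.3, 22.8 and 18.9 FPKM in Res (-2.50 ± 0.21, adjusted p = 1.24e-07, limma). The other 2, named after their values were seen, rose: Cdh5, VE-cadherin, had 88, 118, 109, 96.4 and 76.7 FPKM in Prog, against 13, 29.7, 24.6, 25.7 and 23.4 FPKM in Res, and Flt1, a VEGF receptor, had 33.4, 21.2, 39.7, 45.4 and 35 FPKM in Prog, against 4.06, 4.7, 4.02, 5.08 and 9.72 FPKM in Res. Both were separate between the groups (2.05 ± 0.26 and 2.49 ± 0.32). Of 15 angiogenic factors 2 rose and 7 fell (median -0.571), against 40.2% and 32.5% of all genes tested. Vegfa rose, with Res 1 and Res 5 at 52.4 and 83.7 FPKM and the other Res libraries at 11.7 to 18.7 FPKM against 69.2 to 96.5 FPKM in Prog, and Figf, Vegfb and Vegfc, its relatives, fell.

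Fibroblast markers fell in 9 of 14 genes (median -1.404), where 32.5% of all genes tested fell. Dpt, dermatopontin, had 29, 27.8, 24.9, 29.2 and 11.2 FPKM in Prog, against 117, 230, 267, 224 and 83.6 FPKM in Res (-2.81 ± 0.35, adjusted p = 3.79e-06, limma), and Gsn and Postn fell by 2.05 and 1.86 on the log2 scale. Fap, which activated fibroblasts express, was at 12.9 FPKM on average in Prog and 7.67 FPKM in Res and was not called; it was called higher without Prog 2, Prog 5 or Res 5 (adjusted p from 0.0355 to 0.04), with library weights (0.0418) and with the replicate block (0.0481). Without Res 1 and Res 5 it was the 1 fibroblast marker that rose. Of 9 markers of pericytes and smooth muscle 5 fell, led by Des (-3.74), against 32.5% of all genes tested. Mcam rose (0.85 ± 0.33, adjusted p = 0.0273, limma). This call was lost without Prog 1, Prog 4, Res 1 or Res 4, and without Res 1 and Res 5 together. Pmp22 and Cnp of the Schwann cell list fell and Egr2 rose. In this list 5 of 9 members fell, against 32.5% of all genes tested, and 3 fell without Res 4. Of 9 listed adipocyte genes 5 were tested. Fabp4, Lpl and Pparg fell, where 32.5% of all genes tested did, and all 5 fell without Res 1 and Res 5. Fabp4 lost its call without Prog 1, 2 or 4 or without Res 3 or 4 (adjusted p from 0.059 to 0.0997).

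Skeletal muscle genes had the lowest median of the 45 lists. All 15 fell (median -4.095), and their sum was 5.989 to 57.74 FPKM in Prog against 108.7 to 1351 FPKM in Res. Acta1, skeletal alpha-actin, had 4.12, 2.87, 14.8, 0.685 and 4.23 FPKM in Prog, against 21.3, 144, 222, 296 and 132 FPKM in Res (-4.66 ± 0.81, adjusted p = 8.71e-05, limma). Ckm, Myl1 and Atp2a1, genes of the contractile fiber, fell by 4.51, 4.37 and 4.36 on the log2 scale. Ckm and Myl1 averaged 0.896 and 0.9095 FPKM in Prog, so they passed the filter only through Res, which favors a fall. Res 1, the library with keratins, had the lowest muscle sum of its group. Hba-a2, an alpha globin of red cells, had the largest called fall: 0.00944, 17.1, 0.00927, 0.0777 and 22.6 FPKM in Prog, against 269, 198, 602, 70.7 and 218 FPKM in Res (-6.00 ± 0.85, adjusted p = 1.18e-05). Hba-a1 and Hba-a2 are near-identical, Hba-a1 was not called but was called lower without Res 1 (adjusted p = 0.00235) and with library weights (0.00359), and the split between the copies is uncertain. Ogn, a small matrix proteoglycan, and Angptl7, a secreted angiopoietin-like protein, fell by 4.53 and 4.46.

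Antigen presentation and interferon response genes were lower in Prog. Of 7 tested class II genes 6 fell (median -2.418), and H2-Aa had 30.1, 37.4, 43.4, 52.4 and 77.8 FPKM in Prog, against 187, 933, 626, 345 and 83.9 FPKM in Res (-2.76 ± 0.64, adjusted p = 0.00112, limma). Of 21 genes of class I presentation and the interferon gamma response 17 fell and none rose (median -1.790). H2-K1, a classical class I gene, named after its values were seen, had 110, 117, 56.4, 120 and 74.4 FPKM in Prog, against 310, 1007, 690, 661 and 151 FPKM in Res, and the immunoproteasome subunit Psmb9 fell by 2.68 ± 0.51. B2m, the shared light chain of class I, was at 836 to 1689 FPKM in Prog and 1003 to 3215 FPKM in Res and missed the call (-0.84 ± 0.39, adjusted p = 0.0596), but was called lower without Prog 4 (0.0427) or Res 5 (0.0147). In Res 5 H2-Aa, H2-K1 and Psmb9 were each at their lowest of the Res group, close to the Prog range. Of 20 type I interferon-stimulated genes 14 fell and none rose (median -1.619), but the count was 7 to 8 without Prog 3, Prog 5, Res 3 or Res 4 and 1 in the columns of single values. Ifit2 and Rsad2, antiviral proteins, lost their calls there (adjusted p = 0.102 and 0.135), and Prog 1 was the highest Prog library for both.

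Checkpoint genes fell in 9 of 15 cases and rose in 2 (median -1.177), against 32.5% and 40.2% of all genes tested. Cd274, the gene of PD-L1, had 11.6, 6.14, 19.1, 3.35 and 4.65 FPKM in Prog, against 9.33, 9.1, 9.1, 18.6 and 6.25 FPKM in Res, overlapped between the groups and was not called (-0.35 ± 0.46, adjusted p = 0.5, limma). Cd86, a costimulator of antigen-presenting cells, and Cd200r1, an inhibitory myeloid receptor, fell by 2.09 and 1.47 on the log2 scale. Pdcd1, Ctla4, Lag3, Tigit and Havcr2 fell, with means of 2.18 to 8.996 FPKM in Res. In the columns that look like means, Ctla4 and Tigit lost their calls (adjusted p = 0.122 and 0.129, limma). Ctla4 lost its call in the columns of single values too (0.0564). Cd276 (B7-H3) and Cd80 (B7-1) rose, Cd80 without its call in the columns of single values (adjusted p = 0.257, limma). Cd276 had 34.5, 26.8, 30.1, 25.6 and 18.7 FPKM in Prog, against 14.2, 10.7, 10.3, 11.1 and 13 FPKM in Res (1.11 ± 0.17, adjusted p = 2.28e-05), and Cd80, the other costimulator beside Cd86, was at 6.37 to 16.2 FPKM in Prog and 3.14 to 6.09 FPKM in Res.

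The same contrast of resistant with residual tumors under the PD-L2 antibody uses none of these libraries. With 2 tumors a side, no gene was called in aPDL2_large over aPDL2_small (0%), and 996 genes had an unadjusted p below 0.05 (8.17%, limma). The count was 4 without aPDL2_large 1, 3 without aPDL2_small 1 and 19 without aPDL2_small 2, where the lone tumor is assumed to vary like the others, and 12 in a fit of all 25 libraries. Of the 4899 genes called higher in Prog, 83.22% were higher in aPDL2_large than in aPDL2_small on average, and of the 3966 called lower 22.97% were, against 55.43% of all genes tested. The median log2 changes of these genes in aPDL2_large over aPDL2_small were 0.21 and -0.262. Of genes at least 8-fold higher in Prog 80 of 93 were higher in aPDL2_large, and of those at least 8-fold lower 6 of 102. Stc1 had 76 and 194 FPKM in aPDL2_large, against 8.89 and 33.7 FPKM in aPDL2_small. Lyz2 had 84.8 and 144 FPKM in aPDL2_large, against 960 and 436 FPKM in aPDL2_small. In both genes the large and small tumors were separate, as were Prog and Res.

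The contrasts also differed. The difference between the 2 contrasts was itself called in 1879 genes (15.4%), 1097 of them more positive in Prog over Res (9%) and 782 more negative (6.42%), and the count was 507 without aPDL2_large 1, 1230 without aPDL2_small 1 and 663 without aPDL2_small 2. Braf was among them, with a difference of 2.80 (adjusted p = 2.26e-06, limma). Esp15 was at 0.338 and 0.0744 FPKM in aPDL2_large and at 0.0352 and 0.112 FPKM in aPDL2_small, and Prl8a9 stayed under 1 FPKM in all 4; both differences were called (adjusted p = 0.00194 and 0.000431). Dusp6 had 254 and 158 FPKM in aPDL2_large, against 153 and 180 FPKM in aPDL2_small, so that the small tumors on the antibody were well above the Res range of 24.2 to 74.2 FPKM, and the difference of contrasts was 2.34 (adjusted p = 0.00264). The 2 small tumors were unlike each other in several risen genes: Mmp1a was at 0.31 FPKM in aPDL2_small 1 and 95.8 FPKM in aPDL2_small 2, and Dusp4 at 3.84 and 121 FPKM. Of skeletal muscle genes, 15 of 15 fell in Prog, and 11 of 15 were lower in aPDL2_large with a median of -0.151; of macrophage genes, 18 of 22 fell in Prog and 21 of 22 were lower in aPDL2_large with a median of -1.761.

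The resistant tumors of the second batch without the antibody have no residual counterpart there, so their levels are given with no test, and batch cannot be told apart from other differences. Several risen genes were high in them too: Plau had 884, 947 and 610 FPKM, Il10 had 23.6, 15.1 and 14 FPKM, Nefl had 59.1, 32.4 and 68 FPKM and Dusp6 had 430, 271 and 349 FPKM in Prog of batch 2, all above the Res ranges. Others were not: Mrps33, beside Braf, was at 38.8, 39.1 and 37 FPKM, inside the Res range, and Esp15 was listed at 0 in 2 of these tumors and at 4.7 FPKM in the third. Apoe had 1390, 1879 and 355 FPKM in Prog of batch 2, above the Prog range of batch 1 and below the Res range. These genes were chosen after their values were seen.

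**Figure D5:**
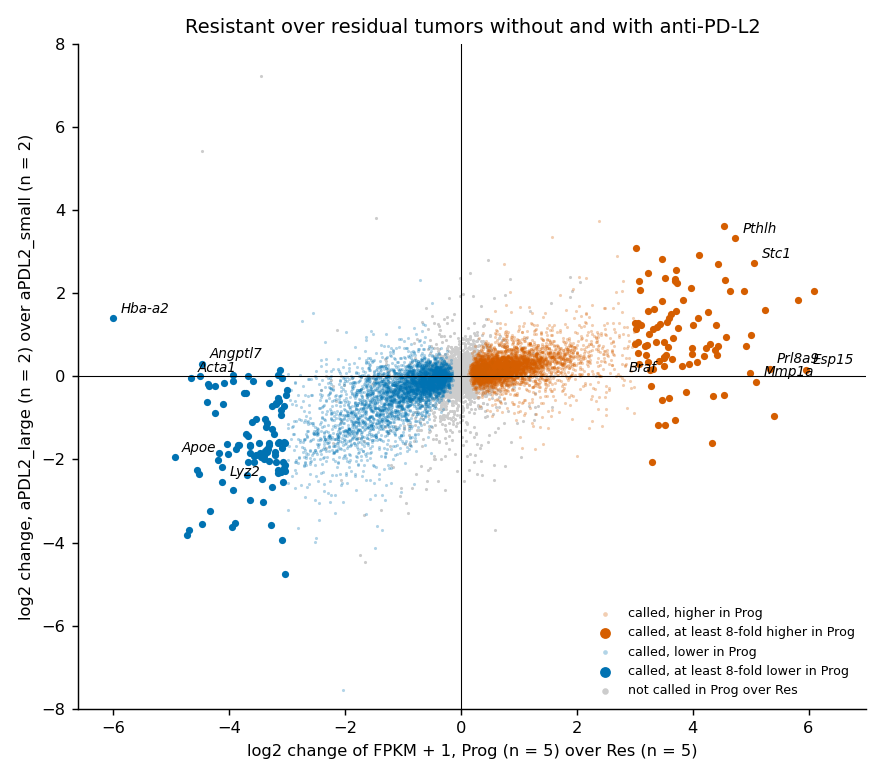
Log2 change of FPKM + 1 in aPDL2_large over aPDL2_small (n = 2 each, vertical) against Prog over Res (n = 5 each, horizontal) for all genes tested except Mir2137, which lies outside the axis at -8.01. Orange and blue points were called higher and lower in Prog, large points by at least 8-fold; Lyz2 and Apoe lie in the lower left, Stc1 and Pthlh in the upper right, and Braf, Esp15, Prl8a9 and Mmp1a near 0 on the vertical axis.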

How the data were processed

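RNA was selected for poly(A), made into unstranded TruSeq libraries and sequenced in pairs of 100 bases, per the labels' protocols. The authors deposited FPKM values; TopHat2, Cuffnorm, Cuffdiff and the mouse build mm9 are named in the submitters' processing notes. Without counts the depth cannot be stated, and no interval for counting error is printed. The values in Prog 2, 4 and 5, Res 1, 3 and 5 and Veh 1, 2 and 4 carry 7 digits, as means of a pair would. Genes with a mean of at least 1 FPKM over the 10 libraries were tested on log2(FPKM + 1) with limma 3.58.1 (R 4.3.3; 18 libraries of batch 1, 1 term each for Prog, Res, Reg and Veh, trended variance, two-sided, Benjamini-Hochberg over 12190 genes, called below 0.05), after tests on simulated data. Batch 2 (7 libraries) and the difference of contrasts (25 libraries) were fitted likewise. Members and lists were chosen with earlier results of these data known. Named by rule were the 12 largest non-overlapping rises and falls (predicted genes, small RNAs and receptor segments left out), the 3 smallest adjusted p in each list and 10 fixed genes; other genes named were chosen after their values were seen. Promoter sequences and gene order are from RefSeq (GRCm38.p6), matched by symbol: 22375 symbols matched a current symbol, 1427 a synonym and 138 neither. Some genes that the rule names are not reported here.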

Additional observations from a re-analysis of the deposited data

Results flagged for a closer look

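Of 488 sets of 5 libraries (each named and tested gene in Prog and in Res), 48 had a highest or lowest library far from the other 4 by Dixon's criterion, which chance alone meets in about 1 of 20 sets. The values below are levels in that library. Prog 1 stood above the rest of its group in Cd163 at 28.9 FPKM, Col14a1 at 4.85 FPKM, Ifit2 at 15.4 FPKM, Lyz2 at 109 FPKM, Mmp13 at 139 FPKM, Mmp27 at 0.678 FPKM, Rsad2 at 7.6 FPKM, Serpinb2 at 18.6 FPKM and Vegfc at 6.61 FPKM. Prog 2 stood above the rest of its group in Hp at 479 FPKM and Saa3 at 463 FPKM. Prog 2 stood below the rest of its group in Csf1r at 10.3 FPKM. Prog 3 stood above the rest of its group in Acta1 at 14.8 FPKM, Fos at 14.5 FPKM, Pfkfb4 at 4.76 FPKM and Timp2 at 537 FPKM. Prog 4 stood above the rest of its group in Adm at 148 FPKM and Car9 at 34.9 FPKM. Prog 5 stood above the rest of its group in Mest at 15.9 FPKM and Tas2r137 at 22.7 FPKM. Prog 5 stood below the rest of its group in Cdkn2a at 4.95 FPKM and Dpt at 11.2 FPKM. Res 1 stood above the rest of its group in Mki67 at 6.82 FPKM and Tpx2 at 6.29 FPKM. Res 1 stood below the rest of its group in Pfkfb3 at 11.1 FPKM. Res 2 stood above the rest of its group in Adamts1 at 124 FPKM and Adck2 at 8.63 FPKM. Res 3 stood above the rest of its group in Prl2a1 at 0.0272 FPKM. Res 4 stood above the rest of its group in Cd274 at 18.6 FPKM and Lpl at 28.6 FPKM. Res 5 stood above the rest of its group in Adm at 51.1 FPKM, Areg at 26.7 FPKM, Ctsl at 1545 FPKM, Cxcl5 at 67.6 FPKM, Dmp1 at 72.7 FPKM, Dusp4 at 15.9 FPKM, Dusp6 at 74.2 FPKM, Egr1 at 47.5 FPKM and Ereg at 151 FPKM. It stood above them also in Flt1 at 9.72 FPKM, Hbegf at 28.1 FPKM, Il11 at 300.2 FPKM, Il1rl1 at 500.0 FPKM, Mmp1a at 2.52 FPKM, Nppb at 55.3 FPKM, Prl3d3 at 0.0321 FPKM and Prl8a9 at 0.392 FPKM. Res 5 stood below the rest of its group in Gas6 at 26 FPKM.

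The difference between the 2 contrasts was tested in limma over all genes, with adjusted p from 2.26e-06 to 0.0489 in these. Among genes described above, the log2 change of Prog over Res was more positive than that of aPDL2_large over aPDL2_small, with a difference of 1.41 for Adck2, 4.91 for Areg, 2.80 for Braf, 3.76 for Btc, 2.78 for Ccl24, 1.96 for Ccnb1, 2.26 for Ccnd1, 1.88 for Ccne1, 1.42 for Ccne2 and 1.68 for Cd276. The difference was also positive, at 2.44 for Cd80, 1.68 for Cdc20, 2.05 for Cdh5, 2.07 for Col5a3, 0.56 for Cox7b, 2.45 for Dennd2a, 2.34 for Dusp6, 2.48 for Egln3, 2.29 for Egr1 and 1.96 for Egr2. Positive differences were called as well at 2.55 for Egr3, 5.79 for Esp15, 2.98 for Flt1, 3.45 for Hbegf, 2.71 for Il10, 3.15 for Il33, 1.13 for Mcm4, 1.19 for Mcm6, 1.33 for Mdm2 and 1.67 for Mkrn1. Further ones were 5.22 for Mmp1a, 4.99 for Mmp1b, 2.89 for Mrps33, 0.94 for Ncl, 2.21 for Ndufb2, 4.01 for Nefm, 1.05 for Npm1, 1.48 for P4ha1, 4.84 for Phlda2 and 3.05 for Plat. To these come 3.65 for Plau, 2.35 for Prl2a1, 3.73 for Prl6a1, 5.15 for Prl8a9, 2.33 for Slc37a3, 2.16 for Spry4, 1.65 for Srebf2, 2.03 for Ssbp1, 2.34 for Stc1 and 2.09 for Top2a. The rest were 1.74 for Tpx2 and 1.81 for Ube2c.

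In the opposite direction, the change of Prog over Res was more negative, with a difference of -4.77 for Angptl7, -2.99 for Apoe, -2.25 for Bmf, -1.28 for Cdkn2c, -4.53 for Ckm, -1.43 for Ctsd, -3.18 for Cxcl5, -3.33 for Des, -0.93 for Erbb2 and -2.46 for Esam. The difference was also negative, at -1.45 for Fas, -2.41 for Figf, -7.41 for Hba-a2, -2.07 for Mmp11, -1.28 for Mmp8, -0.94 for Pax3, -2.12 for Pdgfb, -2.24 for Pmp22, -1.68 for Sesn1 and -1.05 for Snai2. The others were -1.02 for Tgfb3, -1.70 for Trem2 and -1.34 for Vegfb.

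The 2 contrasts also differ in batch and in the antibody, which cannot be told apart here. Leaving out single aPDL2 libraries changed the number of such genes over the whole table, 1879, to between 507 and 1628.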

How the results depend on the processing

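Prog over Res gave 8458 to 8994 called genes when 1 library was left out, 4661 to 5003 of them higher in Prog and 3791 to 3991 lower, and every gene called both there and in the reported test kept its direction. Under the other settings the total was 8868 with a pseudocount of 0.1, 8848 with size factors, 8623 with the 10 Prog and Res libraries alone, 8529 with all 25 libraries, 9524 with library weights and 8935 with a term for columns that look like means. Without a filter it was 11047 of 19612 genes, and at a mean of at least 5 FPKM 6761 of 9136, of which 2552 were lower in Prog. Chosen after seeing the data, leaving out Res 1 and Res 5 gave 8903, the columns that look like means 7201 and the columns of single values 7167. The labels state no pairing of Prog with Res tumors. Deviations of same-numbered Prog and Res libraries from their group means correlated at -0.096 to 0.093. Only Prog 5 correlated best with the Res library of its number. Whether same-numbered tumors shared a mouse or a run cannot be told from these values. With the replicate block 8728 genes were called, Fap gaining (adjusted p = 0.0481) and Il1rn losing its call (0.0528, limma).

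The antibody contrast called 12 genes with all 25 libraries, 1 with a pseudocount of 0.1 and 0 to 19 with 1 library left out. The difference of contrasts, 1879 genes with all libraries, called 507 without aPDL2_large 1, 663 without aPDL2_small 2, 1230 without aPDL2_small 1 and 1628 without aPDL2_large 2, 1874 with a pseudocount of 0.1 and 1900 without a filter. The cause was not tested, beyond the smaller number of libraries. Over the 274 named genes and their settings, 5808 calls were as reported, 116 were lost and 56 gained. Osm reversed in the columns of single values (log2 change 0.0292, adjusted p = 0.949 in limma). Of the counts per list, 69 moved by over 1.5 times and 1911 did not. The deposited values are FPKM without counts, so genes of low FPKM are given no counting error.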
